A study of Danio rerio with 14 samples.

Results

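Eyes of zebrafish larvae that had been exposed to propylthiouracil (PTU) and then left to recover were compared with the eyes of younger larvae that had never been exposed, to find the genes whose transcript levels were alike in these eyes and the genes whose levels differed. The comparison was the contrast PTU 8 dpf minus control 5 dpf (dpf: days post fertilization) from a linear model of all 14 of the 14 two-colour arrays, in which an array counted as +1 for the group labelled with Cy5 and as -1 for the group labelled with Cy3. All larvae were wild-type AB zebrafish. Control 5 dpf larvae were raised without PTU and sampled at 5 dpf, and PTU 5 dpf larvae were sampled at the same age at the end of the exposure to 350 mg/L PTU, which had started at fertilization. Control 8 dpf and PTU 8 dpf larvae came from other plates of the same treatments, spent 3 further days in clean water and were sampled at 8 dpf. Each of the 4 groups had 3 RNA extracts, and each extract held the eyes of 10 larvae from 1 plate. The 2 groups compared differed in age as well as in exposure. A difference between them can therefore not be told apart as an effect of the exposure or of the 3 days. Values of control 8 dpf or PTU 5 dpf eyes against the same control 5 dpf extracts are given beside part of the differences. Because these extracts were whole eyes, fewer cells of a type and less RNA per cell cannot be told apart.

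PTU blocks the synthesis of thyroid hormone, which in fish takes part in the growth of the eye and in the choice of opsin by cones. Reduced pigmentation of the retina after PTU exposure was described in an earlier study by the same authors. In zebrafish the retina is layered and sees before the larva feeds, cones mature ahead of rods, and new neurons and lens fibres continue to be added from the rim of the retina and of the lens. Damaged retina of fish draws in microglia and other macrophages, and Mueller glia switch on a known set of injury transcription factors before they divide.

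The table held ratios of 16913 probes after the removal of 1 control row, and 13708 of these probes were assigned to 8445 genes. Ratios keep neither the intensities nor a distance from background, so the number of arrays limited the precision and the presence of a gene means here only that a probe of it passed the filter of the study. On this basis 54 of 78 listed lens genes, 6 of 10 visual opsins, 19 of 29 genes of cone phototransduction and 17 of 22 of rod phototransduction were measured. So were 25 of 47 genes of photoreceptor structure and transcription factors and 5 of 13 of horizontal cells. Of other tissues, 34 of 40 muscle and 36 of 49 epidermal and epithelial genes were measured. Per-extract levels below are log2 values solved from the 14 arrays by least squares, relative to the mean of the 3 control 5 dpf extracts and given in the order of replicates 1, 2 and 3, and differences are estimates of the model with its standard error (SE). The median SE of a gene was 0.118. Replicate 1 of control 5 dpf and replicate 1 of PTU 5 dpf lay on 4 arrays each and every other extract on 2, and the 4 arrays that linked the ages all carried one of these extracts. Without control 5 dpf replicate 1, which also removed the direct array, the genes called higher fell from 744 to 213. Those called lower fell from 570 to 133. List counts of 4 or more genes that this omission moved by more than 1.5 times are therefore also given without that extract. Some that other extracts moved as much are given as the range over the 12 omissions of an extract. Counts over all genes with a fold limit, by size of difference or by order of extracts were not repeated with an extract left out.

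Of 16913 transcripts, 420 were higher (2.48%) and 498 lower (2.94%) in recovered eyes than in younger control eyes, 5.43% in all, at an adjusted p under 0.05 and a log2 difference over 0.75 (1.68-fold). At the level of genes, with the RNA extract as a random effect and no limit on the fold, 744 of 8445 genes were higher (8.81%) and 570 lower (6.75%) at an adjusted p under 0.05, 15.6% in all. With the fold limit added, 198 genes were higher (2.34%) and 231 lower (2.74%). Among the 3205 probes without a gene, 150 passed the test for transcripts (4.68%). A gene was called matched where the whole 95% interval of its difference lay within 0.5 on the log2 scale (1.41-fold) on either side of 0 and the gene did not pass the test. This held for 5221 genes (61.8%). The remaining 1910 genes (22.6%), neither called nor matched, were undecided, and 121 of the called genes (1.43%) also lay within the margin. The differences were mostly moderate: 250 of the 1314 called genes differed by over 1 on the log2 scale and 53 by over 2, of which 37 were higher and 16 lower. In 1261 of the 1314 called genes the 3 PTU 8 dpf extracts lay all on the same side of the 3 control 5 dpf extracts, beside 19.8% of all genes lying all above and 14.7% all below. Only 1 array carried both groups, PTU 8 dpf replicate 2 in Cy5 against control 5 dpf replicate 1 in Cy3. When the model was fitted without that array, 388 genes passed the same test and fold limit, and the array gave the same sign for 387 of them. Both of its extracts stayed in that fit on other arrays. The signs therefore compare repeated hybridizations of the same RNA, for genes chosen by the size of their difference. Over all 8445 genes, which are not independent replicates, the array and the difference of the same 2 extracts from the other 13 arrays had a Pearson r of 0.287.

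**Figure D1:**
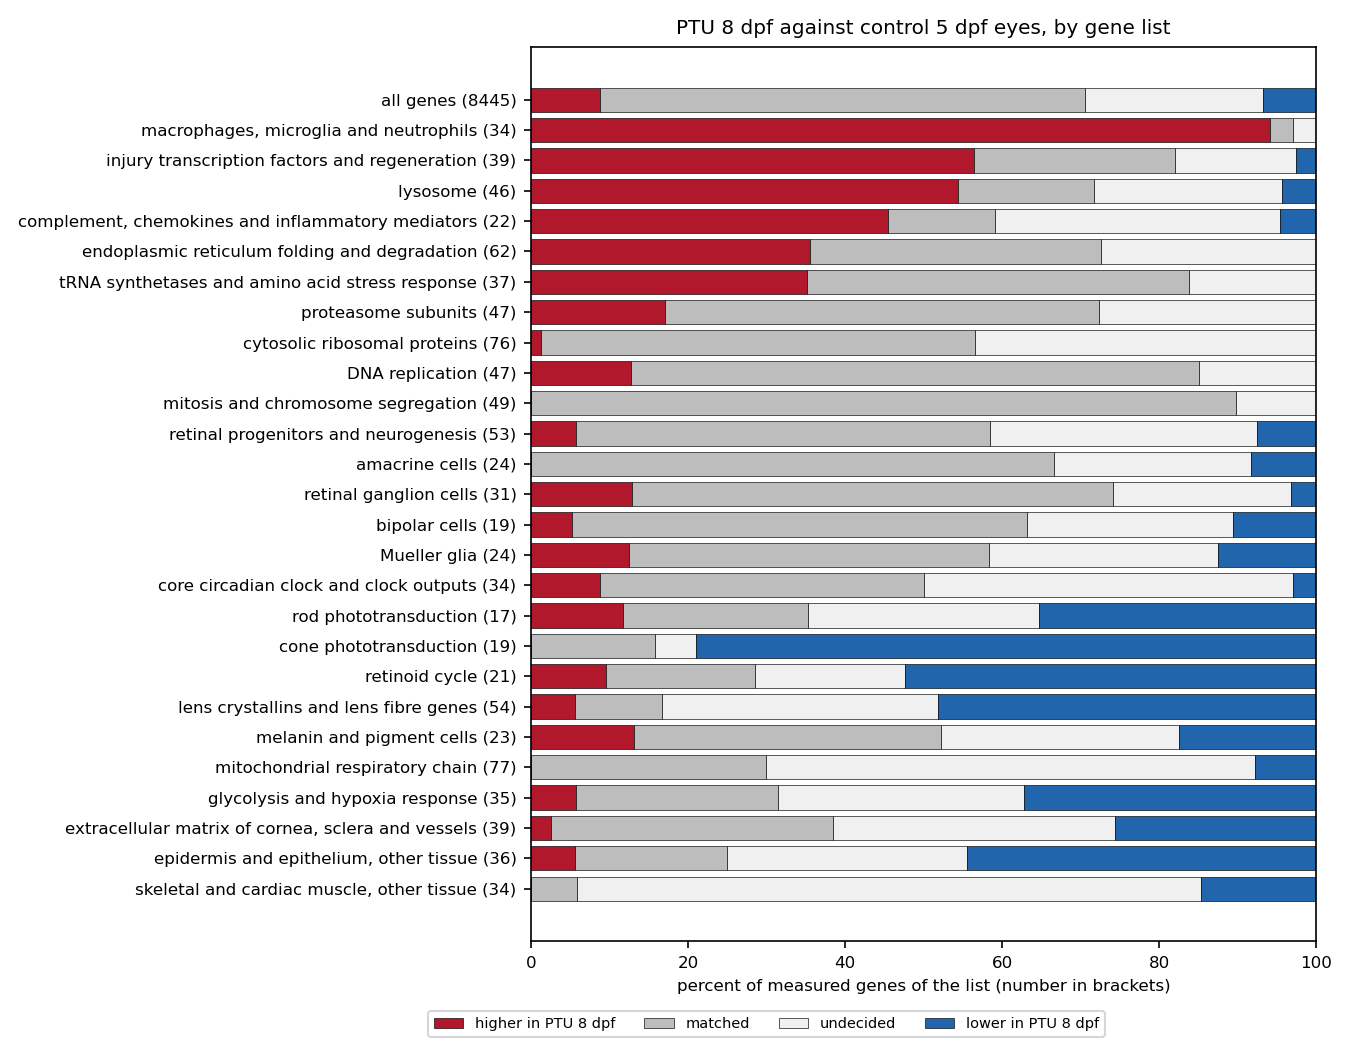
Percent of the measured genes of each list (number in brackets) that were higher, matched, undecided or lower in PTU 8 dpf eyes against control 5 dpf eyes, on the x axis. Among all 8445 genes 8.81% were higher, 61.8% matched and 6.75% lower, while 94.1% of the macrophage, microglia and neutrophil genes were higher and 78.9% of the cone phototransduction genes lower.

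The largest rises were in jacalin-like lectins, proteins named for a sugar-binding domain, and in granulin precursors, secreted growth factors that are also cleaved in lysosomes. For jac9 the control 5 dpf extracts had log2 levels of -0.40, 0.25 and 0.15 and the PTU 8 dpf extracts 5.63, 6.16 and 5.87. The groups stood far apart, and the difference of 6.00 ± 0.37 (SE), a 63.8-fold rise, had an adjusted p of 3.56e-08 by limma. The jacalin list has 6 measured genes, of which 5 were higher (83.3%, beside 8.81% of all genes). Besides jac9 these were jac6 by 4.80 ± 0.30, jac8 by 3.70 ± 0.29, jac4 by 2.22 ± 0.27 and aep1, chosen after its value was seen, by 0.50 ± 0.09. The gene jac7 was matched at 0.01 ± 0.13. All 5 calls held whichever extract was left out. These lectins are close copies of each other, so a probe may read more than its own gene, and probes disagreed, from 1.51 to 5.94 for jac8 and from -0.65 to 3.38 for aep1. The jac9 difference from control 5 dpf was 5.05 with PTU at 5 dpf and 2.17 in control 8 dpf eyes.

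Among the granulins, grna.2 had log2 levels of 0.19, -0.15 and -0.04 in control 5 dpf and 4.2, 4.13 and 4.26 in PTU 8 dpf eyes. The 3 recovered extracts lay within 0.13 of each other and the difference was 4.2 ± 0.12 (18.3-fold higher, adjusted p = 1.4e-11 by limma), against 2.89 with PTU at 5 dpf and 0.46 in control eyes at 8 dpf. The related grna.1 and grna were higher by 3.21 ± 0.15 and 2.47 ± 0.18, and here too probes may read related copies. The other genes among the 12 largest rises were si:dkey-21e2.10 at 3.65 ± 0.19, apoc1, a lipoprotein component, at 3.45 ± 0.20, npc2.2, a relative of the lysosomal cholesterol carrier NPC2, at 3.22 ± 0.16, the galectin lgals9l1 and the leukocyte actin-bundling protein lcp1 at 3.18 each, c1ql1, a C1q-like protein, at 3.06 ± 0.18 and cfp, the complement stabilizer properdin, at 2.89 ± 0.19. All 12 remained called higher when any single extract was left out. The gene si:dkey-21e2.10 read 3.99, 3.46 and 3.50 in recovered eyes, while its difference with PTU at 5 dpf was 0.34 and that of control 8 dpf eyes 0.25.

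**Figure D2:**
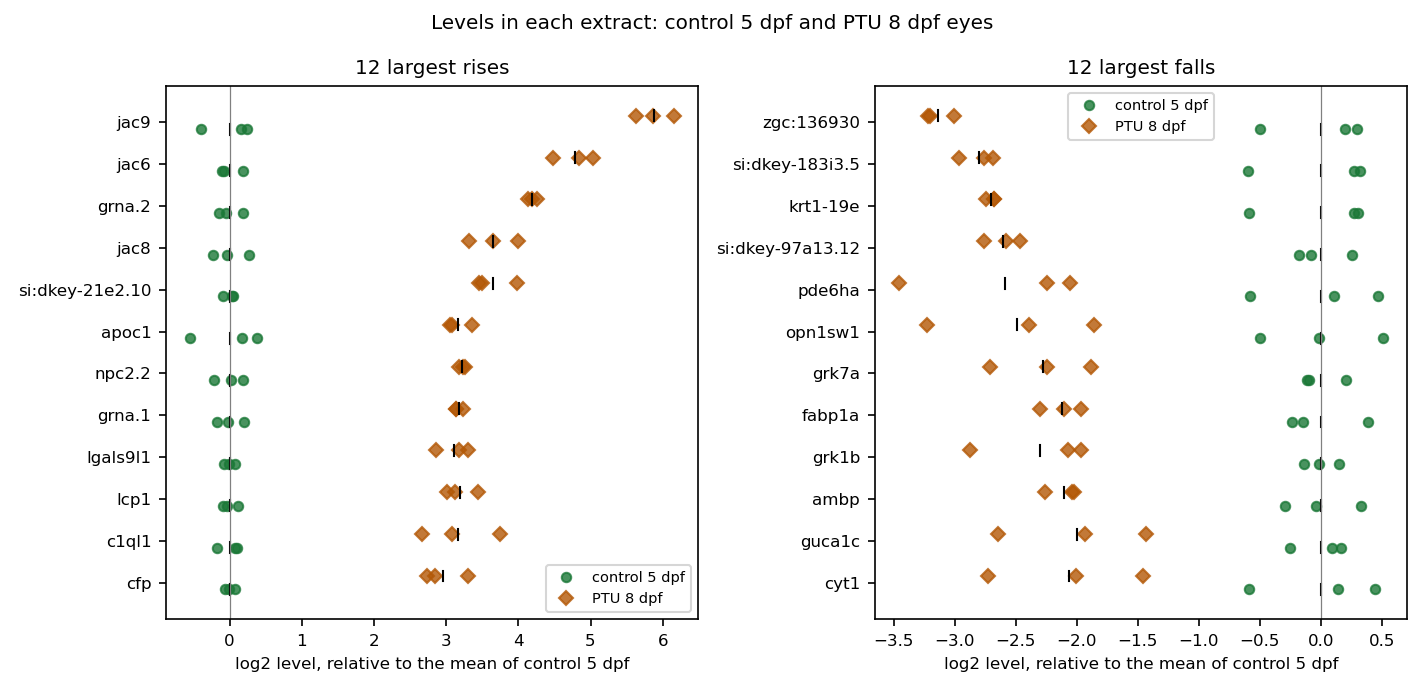
Log2 level of the 12 genes with the largest rise and the 12 with the largest fall in each of the 3 control 5 dpf extracts (circles) and 3 PTU 8 dpf extracts (diamonds), relative to the mean of control 5 dpf, with a vertical bar at each group mean. The groups do not overlap for any of the 24 genes by the rule that chose them. The recovered extracts of grna.2 lie close together at 4.13 to 4.26 while those of pde6ha spread from -3.46 to -2.05.

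Genes of macrophages, microglia and neutrophils were higher almost throughout. Of the 34 measured genes 32 were higher, beside 8.81% of all genes. The gene cybb was matched at 0.23 ± 0.09, and aif1l, named after its value was seen, was undecided at -0.23. The list had a median difference of 1.74, against 0.01 over all genes. In 33 of its 34 genes all 3 recovered extracts lay above all 3 control 5 dpf extracts, beside 19.8% of all genes. Its median level ran from 1.61 to 1.81 in the recovered extracts and from -0.08 to 0.06 in the control 5 dpf extracts. In control eyes at 8 dpf 2 of the 34 genes were higher than at 5 dpf, beside 4.67% of all genes in that comparison, and the median was 0.12, while with PTU at 5 dpf 27 were higher, beside 24.2% of all genes, and the median was 0.91. For lcp1, the control 5 dpf levels were 0.12, -0.09 and -0.03 and the recovered levels 3.45, 3.01 and 3.12. All recovered extracts were high, and the difference was 3.18 ± 0.14 (9.04-fold, adjusted p = 1.57e-09 by limma). The actin regulator coro1a was higher by 2.17 ± 0.10 and the lipid carrier apoeb, which zebrafish microglia express strongly, by 1.58 ± 0.13. The whole list counted 26 higher genes without control 5 dpf replicate 1.

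The list held genes with little difference at the end of the exposure. The invariant chain genes cd74a and cd74b, which serve antigen presentation by MHC class II and were chosen after their values were seen, had differences of 0.10 and 0.01 with PTU at 5 dpf and of 0.18 each in control eyes at 8 dpf. In the recovered extracts cd74a read 2.48, 2.76 and 2.26, against -0.03, 0.05 and -0.02 in control 5 dpf. The groups were clearly separate, and the differences were 2.48 ± 0.15 for cd74a (5.59-fold, adjusted p = 2.26e-08) and 2.47 ± 0.12 for cd74b (adjusted p = 3.03e-09), both by limma.

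Injury genes followed with 22 of 39 higher, beside 8.81% of all genes, and 1 lower (the repressor tgif1 at -0.28, named after its value was seen), 10 matched and 6 undecided, and a median of 0.45. Without control 5 dpf replicate 1 the count of higher genes was 14. The stress transcription factor atf3 had levels of -0.07, -0.24 and 0.31 in control 5 dpf and 2.75, 2.67 and 2.66 in recovered eyes. The recovered extracts were nearly equal, the difference was 2.68 ± 0.17 (6.39-fold, adjusted p = 4.7e-08 by limma), and the corresponding value with PTU at 5 dpf was 3.81. The cytokine signalling suppressor socs3a was higher by 2.49 ± 0.19, the transcription factor cebpb by 2.46 ± 0.19 and socs3b by 1.4 ± 0.11, the last with probes between 0.26 and 2.36. The cytokine receptor subunit gene crlf1a at 0.08 ± 0.08 and the neural transcription factor gene sox11a at 0.15 ± 0.08 were matched under every omission of an extract. Of the complement, chemokine and inflammatory genes 10 of 22 were higher (45.5%, beside 8.81% of all genes), with a median of 0.41 and 7 higher without control 5 dpf replicate 1. A further 1 was lower (the prostaglandin D synthase ptgdsb.1 at -1.22, named after its value was seen), 3 matched and 8 undecided. The terminal complement component c7b read 2.19, 2.16 and 2.19 in recovered eyes against 0.16, -0.32 and 0.16, a difference of 2.06 ± 0.13, and the chemokine ccl34a.4 was higher by 2.18 ± 0.14. The list also holds c1ql1, whose name gives its kinship to complement C1q rather than a role in complement. The prostaglandin synthase ptgs2a at 0.14 ± 0.08 and nfkb2 at 0.06 ± 0.08 were matched.

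Lysosomal genes were higher in 25 of 46 cases (54.3%, beside 8.81% of all genes), with 8 matched, 11 undecided and a median of 0.42. Lower were 2 (4.35%, beside 6.75% of all genes), laptm4b at -0.60 and atp6v0cb at -0.41, named after their values were seen. Without control 5 dpf replicate 1 the count of higher genes was 15, and 1 was matched. The cathepsins led, ctsc with 1.79 ± 0.10 and ctsba with 1.22 ± 0.09. For ctsc the recovered levels of 1.79, 1.79 and 1.84 were far above the -0.05, 0.03 and 0.02 of control 5 dpf, though its probes gave values between 0.60 and 2.97. The sialidase neu1 at 0.01 ± 0.08 and cln3 at 0.12 ± 0.09 were matched. Several list members, ctsba, grna and grna.1 among them, are also on the macrophage list. Of the apolipoprotein and fatty acid binding protein genes 7 of 30 were higher (23.3%, beside 8.81% of all genes) and 4 lower (13.3%, beside 6.75%). The secreted chaperone clu was higher by 2.64 ± 0.11, with 2.62, 2.65 and 2.69 in recovered eyes against 0.07, -0.05 and -0.02, and fabp1a, the liver-type fatty acid carrier, was lower at -2.25 ± 0.20. Both calls held when any single extract was left out, while the list counted 3 higher and 3 lower genes without control 5 dpf replicate 1.

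Genes of protein folding, tRNA charging and the proteasome were higher in part and matched in part. Of the endoplasmic reticulum folding and degradation genes 22 of 62 were higher (35.5%, beside 8.81% of all genes), none lower, and 23 matched (37.1%, beside 61.8% of all genes), with a median of 0.32. The disulfide isomerase pdia3 was higher by 0.92 ± 0.15 and the stress sensor eif2ak3 (PERK) by 0.78 ± 0.11, in recovered extracts at 1.04, 0.71 and 0.83 against 0.09, -0.12 and 0.02. Of the tRNA synthetase and amino acid stress genes 13 of 37 were higher (35.1%), none lower, and 18 matched (48.6%). They included the stress pseudokinase trib3 at 1.25 ± 0.16 and the synthetases eprs1 at 0.77 ± 0.09 and iars1 at 0.75 ± 0.11, against 1.74, 1.58 and 1.29 with PTU at 5 dpf. Of the proteasome genes 8 of 47 were higher (17.0%) and 26 matched (55.3%). They included the immunoproteasome subunit psmb10 at 0.96 ± 0.07, with recovered levels of 0.91, 0.98 and 1.00 against 0.00, -0.06 and 0.06, and the proteasome activator subunit psme1 at 0.89 ± 0.13, whereas the constitutive subunit psmb5 was matched at 0.15 ± 0.08 after a difference of 0.61 with PTU at 5 dpf, although its most variable probe alone was called higher at 0.38. The counts of these 3 lists rested on replicate 1 extracts: they were 9, 6 and 2 higher genes without that of control 5 dpf and 13, 6 and 3 without that of PTU 5 dpf, and 14, 10 and 8 genes were matched when the former was omitted. Over all 12 omissions the higher proteasome genes ranged from 2 to 9 and the higher tRNA synthetase genes from 6 to 15. Cytosolic ribosomal protein genes were matched in 42 of 76 cases (55.3%), with 1 higher (rps19, 0.27 ± 0.07, in 6 of 12 omissions) and 33 undecided, and the matched genes numbered 21 and 15 in the fits that omitted those replicate 1 extracts.

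Genes of cone phototransduction were lower in 15 of 19 cases, beside 6.75% of all genes, with a median of -1.63. The inhibitory subunit of the cone phosphodiesterase, pde6ha, read 0.11, -0.58 and 0.47 in control 5 dpf and -3.46, -2.24 and -2.05 in recovered eyes. Replicate 1 was the lowest of the recovered extracts, yet the groups did not overlap, and the difference was -2.68 ± 0.41 (6.43-fold lower, adjusted p = 0.000317 by limma). The cone opsin kinase grk7a was lower with -2.38 ± 0.26, the cyclase activators guca1c and guca1g with -2.11 ± 0.30 and -1.92 ± 0.19, the catalytic phosphodiesterase subunit pde6c with -2.03 ± 0.24 and the cone transducin gnat2 with -1.93 ± 0.21. These 6 genes held under every omission of an extract, and 12 genes of the list were lower without control 5 dpf replicate 1. The 3 matched genes were the transducin subunit gnb3a at -0.07, named after its value was seen, the RGS protein rgs9b at 0.02 ± 0.11 and the cyclase activator guca1ab.1 at 0.04 ± 0.09. In control eyes from 5 to 8 dpf the list median was -0.51 with 6 genes lower, beside 7.05% of all genes in that comparison, and with PTU at 5 dpf it was -1.57 with 17 lower, beside 22.8% of all genes.

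The visual opsins were read through 6 genes. The ultraviolet opsin opn1sw1 had levels of 0.51, -0.49 and -0.02 in control 5 dpf and -3.23, -1.86 and -2.39 in recovered eyes. All recovered extracts were below all control extracts, and the difference was -2.65 ± 0.29 (6.26-fold lower, adjusted p = 1.58e-05 by limma), beside -1.74 in control 8 dpf eyes and -2.33 in PTU 5 dpf eyes. The blue opsin opn1sw2 differed by -0.89 ± 0.22 and the red opsin opn1lw2 by -0.84 ± 0.20 (adjusted p = 0.0102 and 0.0094), against -0.94 and -2.43 in control eyes at 8 dpf. When control 5 dpf replicate 1 was omitted these values were -1.05 and -1.0 with adjusted p of 0.115 and 0.118, so that 1 opsin was called lower instead of 3. The opn1sw2 call was also lost without PTU 8 dpf replicate 2, and that of opn1lw2 without PTU 5 dpf replicate 1. The green opsins were undecided, opn1mw1 at -0.82 ± 0.30 and opn1mw2, named after its value was seen, at 0.05 ± 0.26. The rhodopsin-like rhol was matched at -0.19 ± 0.14, a match that held in 4 of the 12 omissions of an extract.

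Rod phototransduction genes were split, with 6 of 17 lower (35.3%, beside 6.75% of all genes) and 2 higher (11.8%, beside 8.81%). A further 4 were matched (23.5%, beside 61.8%) and 5 undecided, and the median was -0.27. The 2 higher genes were pde6ga at 0.67 ± 0.19 and guca1aa at 0.61 ± 0.12, and pdcb was among the lower at -1.47 ± 0.25. In control eyes at 8 dpf the list had a median of -0.80 and 12 genes lower than at 5 dpf, beside 7.05% of all genes. With PTU at 5 dpf the median was also -0.80. There 11 genes were lower, beside 22.8% of all genes in that comparison, and 2 higher, beside 24.2%. The lowest of the rod list was grk1b, a rhodopsin kinase paralogue known in zebrafish from cones, at -2.88, -1.96 and -2.07 in recovered eyes against -0.01, -0.14 and 0.15. The difference of -2.24 ± 0.24 held under every omission of an extract, while without control 5 dpf replicate 1 the list counted 1 lower, no higher and 2 matched genes, and over all 12 omissions the lower genes ranged from 1 to 7 and the matched from 1 to 5. The rod phosphodiesterase subunit pde6gb was matched at -0.08 ± 0.18 with -1.22 in control eyes at 8 dpf, although this match held in 4 of 12 omissions. Of the structural and transcription factor genes of photoreceptors 8 of 25 were lower (32.0%, beside 6.75% of all genes), 6 matched (24.0%) and 11 undecided. The disc rim proteins prph2a and prph2b differed by -1.29 ± 0.17 and -1.26 ± 0.16 and cplx4a, a complexin of ribbon synapses, by -1.33 ± 0.20. For prph2a the recovered extracts read -1.36, -1.02 and -1.19 and the control 5 dpf extracts 0.16, -0.23 and 0.07, without overlap. The ciliary gene ttc8 at -0.15 ± 0.08 and the disc membrane gene prom1a at -0.07 ± 0.08 were matched, and the list counted 3 lower genes without control 5 dpf replicate 1.

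**Figure D3:**
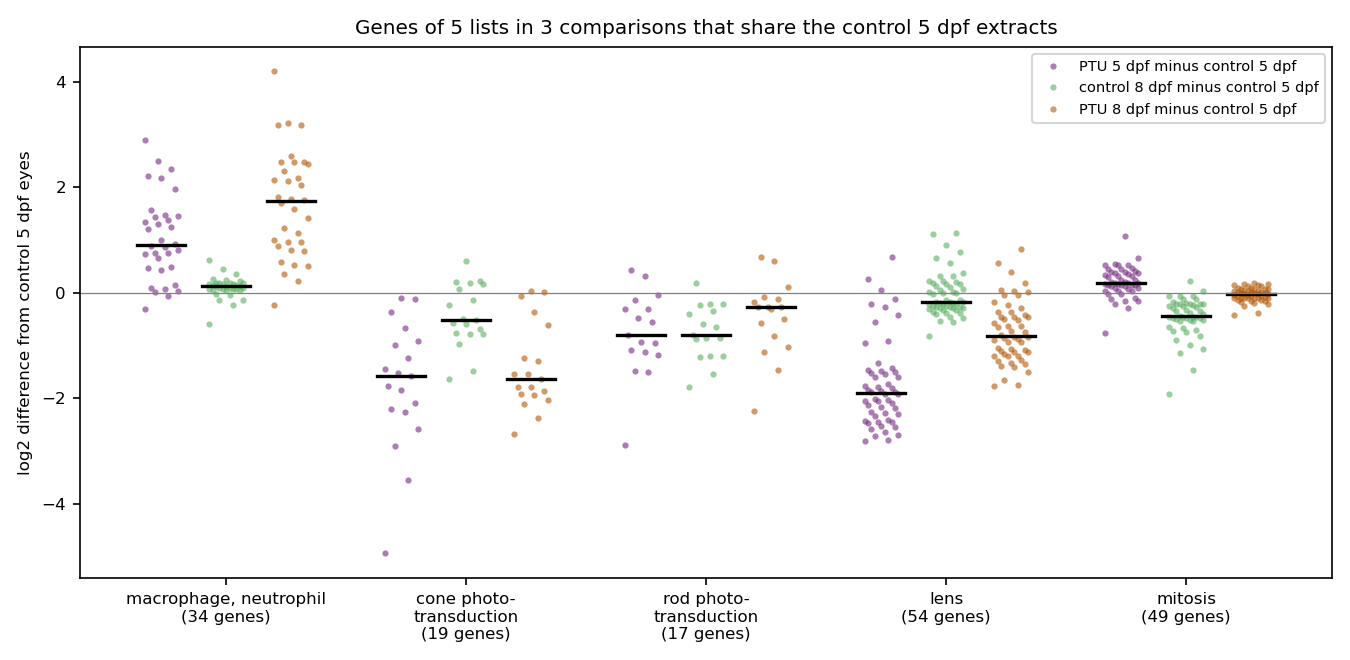
Log2 difference from control 5 dpf eyes of every measured gene of 5 lists (points) in PTU 5 dpf, control 8 dpf and PTU 8 dpf eyes, with a line at each median; the 3 comparisons share the control 5 dpf extracts. The PTU 8 dpf medians are 1.74 for macrophage and neutrophil genes, -1.63 for cone phototransduction, -0.27 for rod phototransduction, -0.82 for lens and -0.03 for mitosis.

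The retinoid cycle, which returns the chromophore of the opsins to its light-sensitive form, had 11 of 21 genes lower (52.4%, beside 6.75% of all genes). Of the others 2 were higher (9.52%, beside 8.81% of all genes), 4 matched and 4 undecided, and the list median was -0.67. Enzymes of the retinal pigment epithelium were among the lowest. The isomerohydrolase rpe65a read -1.52, -1.52 and -1.22 in recovered eyes and 0.26, -0.37 and 0.11 in control 5 dpf. No extract overlapped, and the difference was -1.5 ± 0.17 (2.83-fold lower, adjusted p = 1.58e-05 by limma), against -0.52 in control 8 dpf and -2.56 in PTU 5 dpf eyes. The retinol dehydrogenase rdh5 differed by -1.98 ± 0.25, the opsin-like rgrb by -1.40 ± 0.14 and the vitamin A receptor stra6 by -1.34 ± 0.15. Matched members were rdh12 at 0.05 ± 0.10 and retsat.2 at -0.01 ± 0.07. The list had 5 lower and no higher genes without control 5 dpf replicate 1. The retinal-binding protein gene rlbp1b, which in zebrafish marks Mueller glia, was at -2.01 ± 0.33 and without that extract at -1.58 with an adjusted p of 0.119.

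Of the Mueller glia genes, rlbp1b among them, 11 of 24 were matched (45.8%, beside 61.8% of all genes). Of these 24 genes 3 were higher (12.5%, beside 8.81% of all genes), 3 lower (12.5%, beside 6.75%) and 7 undecided. The higher genes included apoeb at 1.58 ± 0.13, which is also on the macrophage list. The glial filament gene gfap was higher by 0.81 ± 0.12, with 0.61, 0.97 and 0.90 in recovered eyes against 0.03, -0.20 and 0.17, and the water channel aqp4 by 0.81 ± 0.21 (adjusted p = 0.00025 and 0.0149 by limma). The call of gfap held under every omission of an extract and that of aqp4 in 9 of 12. With control 5 dpf replicate 1 omitted the list had 3 higher, no lower and 6 matched genes. Pigment genes were also mixed, with 3 of 23 higher (beside 8.81% of all genes) and 4 lower (17.4%, beside 6.75%). A further 9 were matched (39.1%, beside 61.8% of all genes) and 7 undecided. The melanin enzyme tyrp1b was higher by 1.02 ± 0.20, at 1.13, 0.88 and 1.09 in recovered eyes against 0.14, -0.26 and 0.13, although in control eyes the difference from 5 to 8 dpf was -0.86. The melanosome regulator rab32a was higher by 0.70 ± 0.09 and pnp4a, a purine enzyme of the reflecting iridophores, was lower at -1.03 ± 0.12. The purine enzyme impdh1b was matched at -0.06 ± 0.07 under every omission. Over the 12 omissions the pigment genes counted 1 to 5 lower, fewest without control 5 dpf replicate 1, and 4 to 11 matched, fewest without PTU 5 dpf replicate 1.

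Of the 54 measured crystallin and lens fibre genes 26 were lower (48.1%, beside 6.75% of all genes), 3 higher (5.56%, beside 8.81%), 6 matched and 19 undecided. The median was -0.82, against -1.89 with PTU at 5 dpf (48 lower, beside 22.8% of all genes in that comparison) and -0.17 in control eyes at 8 dpf. The count of lower genes rested on the replicate 1 extracts, with 3 lower when that of control 5 dpf was left out and 2 when that of PTU 5 dpf was, while the median stayed between -0.92 and -0.66 under all 12 omissions. Over those omissions the lower lens genes ranged from 2 to 28 and the matched from 3 to 6. Many members are near-identical gamma crystallins of the crygm2d cluster, so their probes are uncertain. The lens water channel mipa read -0.73, -0.73 and -0.61 in recovered eyes against -0.18, 0.00 and 0.19. All recovered extracts were lower, and the difference of -0.62 ± 0.11 held under every omission. The crystallin crygs2 was higher by 0.83 ± 0.11 and the fibre membrane gene lim2.2 by 0.57 ± 0.09, and these calls held too. Among the matched genes, crygn1 at 0.02 ± 0.11 held under every omission, with -0.08, 0.16 and -0.01 in recovered eyes against 0.16, 0.03 and -0.19, after a difference of -1.81 with PTU at 5 dpf. The alpha crystallin cryaa at -0.17 ± 0.16, the beta crystallin cryba1l2 at 0.18 ± 0.14 and the lens galectin grifin at -0.05 ± 0.16 were matched in 2, 4 and 7 of 12 omissions.

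Several of the largest falls were in genes of surface epithelium and of plasma. The skin keratin krt1-19e had levels of 0.27, 0.31 and -0.58 in control 5 dpf and -2.74, -2.68 and -2.68 in recovered eyes. Control replicate 3 was the lowest of the younger eyes but still far above the recovered eyes, the difference was -2.72 ± 0.22 (6.59-fold lower, adjusted p = 5.71e-07 by limma), and its probes ran from -3.38 to -1.12. The value of control eyes at 8 dpf was -2.42. The genes zgc:136930 and si:dkey-183i3.5 also had control replicate 3 as the lowest of the younger eyes, with differences of -3.08 ± 0.25 and -2.83 ± 0.23, and si:dkey-97a13.12 was at -2.69 ± 0.26. The keratins krt4 and krt5 were at -1.63 ± 0.22 and -1.58 ± 0.18. Other epithelial genes differed from the keratins in direction: the adhesion gene cdh1 was higher by 1.53 ± 0.20 and the claudin cldne was matched at -0.07 ± 0.10. The plasma protein precursor ambp read -2.04, -2.26 and -2.02 in recovered eyes against 0.33, -0.29 and -0.04. It was low in every recovered extract at -2.21 ± 0.21, while in control eyes at 8 dpf it differed by 0.60. The keratin cyt1, also among the 12 largest falls, was at -2.04 ± 0.32 and without control 5 dpf replicate 1 at -1.84 with an adjusted p of 0.0698, whereas the other calls of this paragraph held under every omission of an extract.

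Marker lists of tissues outside the retina and lens varied among the control 5 dpf extracts. Of the epidermal and epithelial genes 16 of 36 were lower (44.4%, beside 6.75% of all genes) and 2 higher (5.56%, beside 8.81%). The list medians were 0.20, 0.23 and -0.48 in control 5 dpf and -0.26, -0.23 and -0.41 in recovered extracts. The muscle list had 5 of 34 lower, with medians of 0.02, 0.69 and -0.66 against -0.04, -0.58 and -0.70. Here the younger extracts differed from each other by more than the groups did. Of the red blood cell genes 5 of 8 were lower, with medians from -0.46 to 0.28 against -1.01 to -0.64. Of the liver and plasma protein genes 3 of 19 were lower, with medians of -0.87, 0.38 and 0.10 against -0.74, -0.88 and -0.85, and of the pancreas and gut genes 4 of 14 were lower, with -0.55, 0.28 and 0.32 against -0.88, -0.58 and -1.27. For both of these lists control 5 dpf replicate 1 was near the recovered extracts and replicates 2 and 3 were above them. Of the cartilage and bone genes 2 of 11 were lower and 1 higher, with medians of 0.08, 0.48 and -0.44 against -0.36, -0.69 and -0.64. Of the brain genes 1 of 15 was higher (6.67%, beside 8.81% of all genes) and 8 were matched (53.3%, beside 61.8%), with medians from -0.22 to 0.15 against -0.06 to -0.02. The lower genes of these lists numbered 3 for epidermis, 0 for muscle, 1 for red blood cells, 6 for liver, 9 for pancreas and gut, and 0 for cartilage and bone when control 5 dpf replicate 1 was omitted. Omitting control 5 dpf replicate 3 gave 18 lower muscle genes and 7 lower cartilage and bone genes, and omitting PTU 5 dpf replicate 1 gave no lower gene of muscle or of pancreas and gut. The matched brain genes numbered 3 in the fit without control 5 dpf replicate 1. The part that such tissue played in any other result was not tested.

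**Figure D4:**
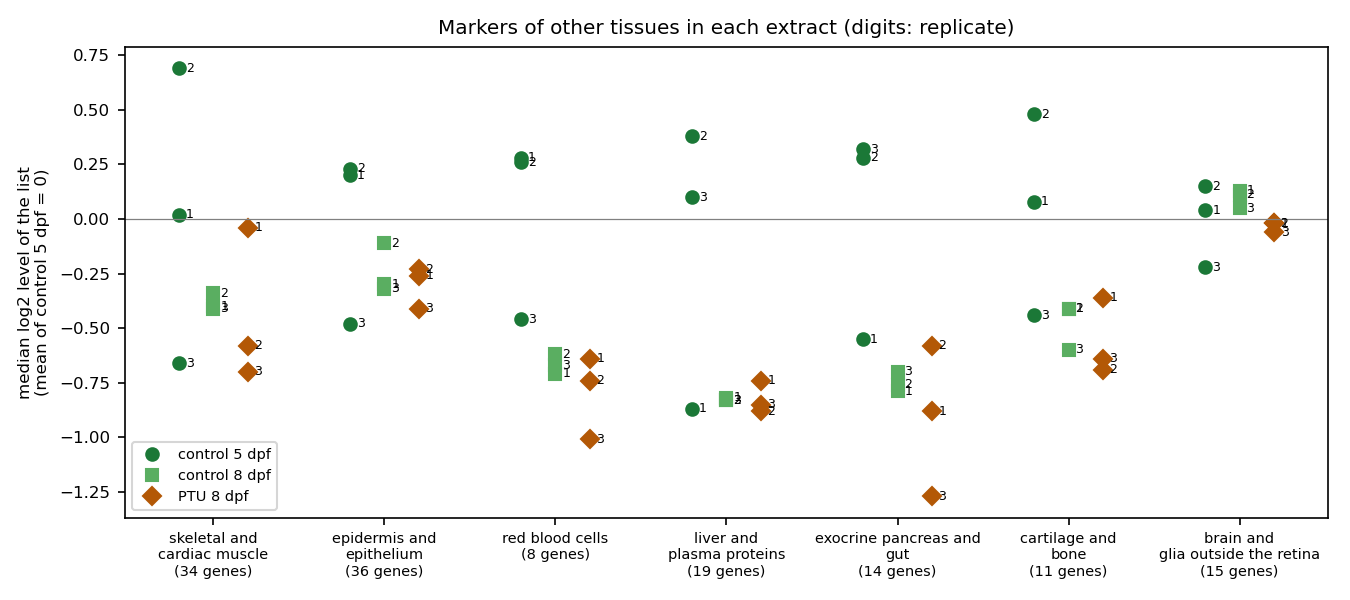
Median log2 level of the marker genes of 7 tissues outside the retina and lens in each control 5 dpf, control 8 dpf and PTU 8 dpf extract, relative to the mean of control 5 dpf, with the replicate as a digit. The control 5 dpf extracts spread from -0.66 to 0.69 for muscle, while the red blood cell medians of the recovered extracts, -1.01 to -0.64, all lie below those of control 5 dpf.

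The extracellular matrix of cornea, sclera and vessels had 10 of 39 genes lower (25.6%, beside 6.75% of all genes), 1 higher and 14 matched (35.9%, beside 61.8%). The median was -0.29, against -0.41 in control eyes at 8 dpf. The corneal proteoglycan kera read -1.06, -1.02 and -1.28 in recovered eyes against -0.15, -0.05 and 0.20. It was lower throughout at -1.0 ± 0.15 and held under every omission, with 0.07 in control eyes at 8 dpf. The fibrillar collagen col1a1b was at -1.04 ± 0.18, against -2.02 in control eyes at 8 dpf, and without control 5 dpf replicate 1 at -0.73 with an adjusted p of 0.188. The list counted 1 lower and 4 matched genes without that extract, 3 lower without PTU 8 dpf replicate 2 and 7 matched without PTU 5 dpf replicate 1 or without PTU 8 dpf replicate 3, and over the 12 omissions 1 to 15 genes were lower.

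Of 49 genes of mitosis and chromosome segregation 44 were matched, beside 61.8% of all genes, none was called by limma in either direction at the adjusted or at an unadjusted p under 0.05, and 5 were undecided. The median difference was -0.03, while control eyes at 8 dpf had a median of -0.44. In those eyes 28 of the 49 genes were lower than at 5 dpf, beside 7.05% of all genes in that comparison. With PTU at 5 dpf the median was 0.19. There 25 of the 49 genes were higher, beside 24.2% of all genes, and 2 lower, beside 22.8%. The chromatin protein hmgb2b, one of the matched genes with the largest falls in control eyes, read 0.05, -0.14 and 0.09 in control 5 dpf and -0.12, -0.21 and 0.08 in recovered eyes. The groups overlapped, and the difference was -0.09 ± 0.10, against -1.15 in control eyes at 8 dpf. The mitotic kinesin kif11 at -0.09 ± 0.15 and the importin kpna2 at 0.15 ± 0.10 had values of -1.06 and -1.10 in control eyes at 8 dpf, and their matches held in 9 and 10 of 12 omissions. The kinetochore gene spc25 at -0.07 ± 0.07 and the anaphase activator cdc20 at -0.03 ± 0.06 were matched under every omission of an extract, as was hmgb2b. The mitosis list had 26 matched genes in the fit that left out control 5 dpf replicate 1, again with none called. The DNA replication list had a median of 0.14, against -0.24 in control eyes at 8 dpf. With PTU at 5 dpf its median was 0.29 with 29 of 47 genes higher, beside 24.2% of all genes. In recovered eyes 34 of the 47 were matched (72.3%), 6 higher (12.8%, beside 8.81% of all genes) and none lower. The 6 higher genes were small rises of 0.28 to 0.34, such as the maintenance methyltransferase dnmt1 at 0.31 ± 0.07, and no gene of the list was called when either of the much used replicate 1 extracts of 5 dpf was omitted, with 19 matched in the fit lacking that of control 5 dpf. The histone chaperone subunit chaf1a was matched at -0.03 ± 0.08.

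More widely, 989 genes had changed in control eyes from 5 to 8 dpf. In recovered eyes 472 of these (47.7%) matched the younger control level, a smaller share than the 61.8% of all genes. They were 202 of the 394 that had risen and 270 of the 595 that had fallen. Of the 989 genes 127 were higher and 191 lower, beside 8.81% and 6.75% of all genes, and 199 were undecided. Of the 3968 genes changed by PTU at 5 dpf 2035 matched (51.3%, beside 61.8% of all genes). In this pool 632 were higher and 494 lower, beside 8.81% and 6.75% of all genes, and 807 were undecided. These pools were set by contrasts that share the control 5 dpf extracts with the comparison itself, and are counts only. They were not counted again with an extract left out. The matched genes with the largest rise in control eyes were the clock gene per1b at -0.01 ± 0.22, the clock repressor ciarta at -0.02 ± 0.13, hsd17b12a, an enzyme of fatty acid elongation, at -0.01 ± 0.12, the heat shock factor hsf2 at -0.03 ± 0.18 and the DNA damage binding gene ddb2 at -0.01 ± 0.19. Their differences in control eyes at 8 dpf were 1.86, 1.51, 1.33, 1.06 and 1.06. The match of ciarta held in 11 of 12 omissions and that of hsd17b12a in 10, whereas hsf2 and ddb2 held in 5 each and per1b in 1, since its interval of -0.49 to 0.46 only just lay within the margin. The matched genes with the largest rise under PTU at 5 dpf were gbgt1l3, tuba8l4, atp1a3b, rbbp4 and prdm1a, at -0.05 to 0.27 in recovered eyes after 0.97 to 1.1 at 5 dpf, and these matches held in 6 to 10 of the 12 omissions.

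**Figure D5:**
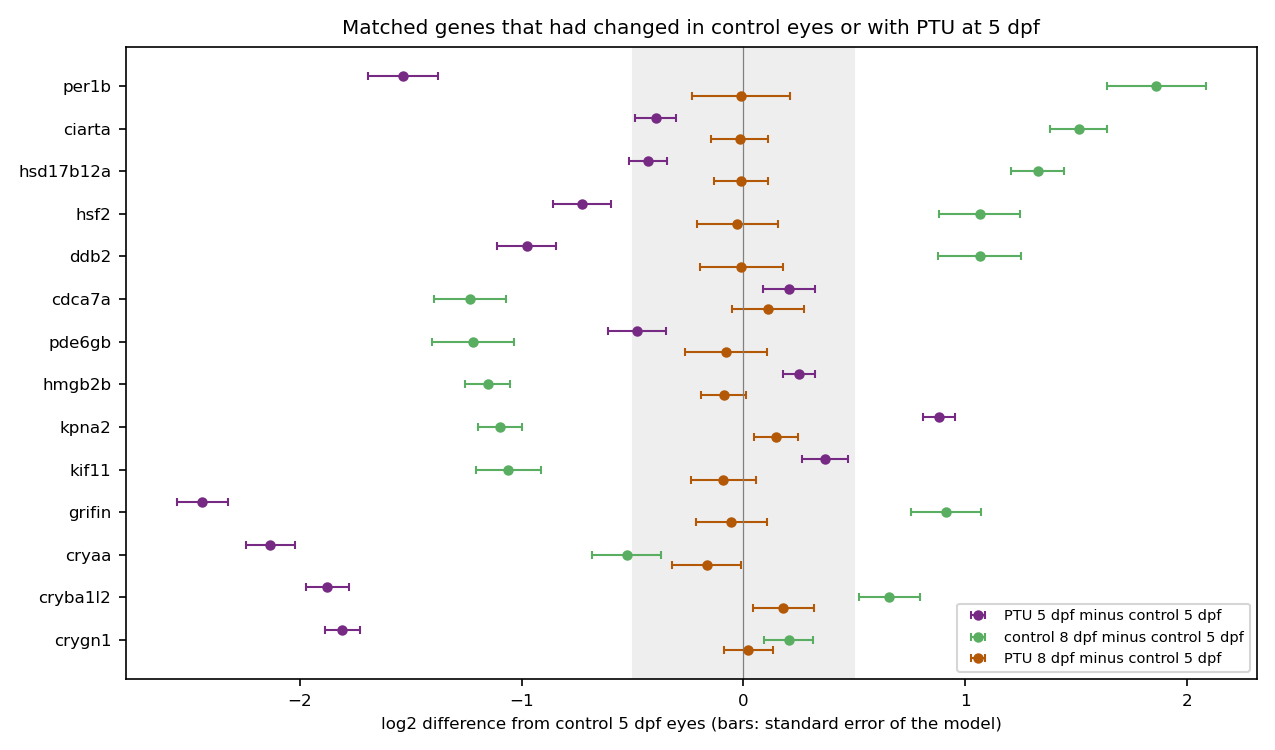
Log2 difference from control 5 dpf eyes, with the standard error of the model as bars, in PTU 5 dpf, control 8 dpf and PTU 8 dpf eyes for the matched genes that rose or fell most in control eyes from 5 to 8 dpf, and for the 4 lens genes among those that had fallen most with PTU at 5 dpf. The shaded band is the margin of 0.5 on either side of 0, and the PTU 8 dpf values lie between -0.17 and 0.18.

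Marker genes of inner retinal neurons were matched about as often as all genes were. The matched genes were 16 of 24 amacrine (66.7%) and 11 of 19 bipolar genes (57.9%), beside 61.8% of all genes. Of the horizontal and ganglion cell genes 3 of 5 (60.0%) and 19 of 31 (61.3%) were matched. The matched genes numbered 6, 4, 1 and 10 in the fit that omitted control 5 dpf replicate 1. The GABA-synthesizing enzyme gad2 at -0.12 ± 0.09, the bipolar cell transcription factor bhlhe23 at -0.03 ± 0.09 and the ganglion cell transcription factors isl2a at 0.04 ± 0.08 and pou4f1 at -0.06 ± 0.08 were matched under every omission. For pou4f1 the recovered extracts read -0.10, 0.01 and -0.02 and the control 5 dpf extracts 0.00, -0.09 and 0.09, and its value with PTU at 5 dpf was -0.62. In these 4 lists 5 genes were higher and 6 lower, and none was called without control 5 dpf replicate 1. Higher were 1 of 19 bipolar (5.26%) and 4 of 31 ganglion cell genes (12.9%), beside 8.81% of all genes. Lower were 2 of 19 bipolar (10.5%), 2 of 24 amacrine (8.33%), 1 of 31 ganglion (3.23%) and 1 of 5 horizontal cell genes, beside 6.75%. The higher genes were the calcium-binding protein cabp5a of bipolar cells at 1.29 ± 0.34 and the ganglion cell list members stmn4l at 1.1 ± 0.22, gap43, an axon growth gene, at 0.63 ± 0.18, thy1 at 0.46 ± 0.10 and sncga, named after its value was seen, at 0.33 ± 0.10. The lower genes were lrit3a at -1.11 ± 0.25 and samsn1a at -0.56 ± 0.16 of the bipolar list, the neuropeptide vip at -0.67 ± 0.14 and the parvalbumin pvalb6 at -0.44 ± 0.11 of the amacrine list, ompa at -0.58 ± 0.16 of the horizontal list and the synuclein sncgb at -0.60 ± 0.14 of the ganglion list. Of the progenitor and neurogenesis genes 28 of 53 were matched (52.8%, beside 61.8% of all genes). A further 3 were higher (5.66%) and 4 lower (7.55%), near the 8.81% and 6.75% of all genes. Without control 5 dpf replicate 1 these counts were 11, 0 and 1. The retinal homeobox gene rx1, which acts in photoreceptors as well as in progenitors, was at -0.83 ± 0.12, with recovered levels of -0.89, -0.75 and -0.80 against -0.05, -0.17 and 0.22. Its control 8 dpf value was 0.02, and the call held under every omission. The G1 cyclin ccnd1 was matched at -0.03 ± 0.07.

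Of the circadian clock genes and outputs 14 of 34 were matched (41.2%, beside 61.8% of all genes), 3 higher (8.82%, near the 8.81% of all genes), 1 lower and 16 undecided. The median was -0.10, although in control eyes 16 of the 34 were higher at 8 than at 5 dpf, beside 4.67% of all genes. The median in control eyes at 8 dpf was 0.39. With PTU at 5 dpf the median was -0.34. There 21 genes were lower, beside 22.8% of all genes, and 3 higher, beside 24.2%. All larvae were sampled in the morning, per the methods of the study. The melatonin enzyme of the retina, aanat1, read 1.16, 1.23 and 1.21 in recovered eyes against 0.05, -0.29 and 0.25. It was higher by 1.16 ± 0.11 (adjusted p = 4.68e-06 by limma) under every omission, with -0.08 in control eyes at 8 dpf and 1.83 with PTU at 5 dpf. Its paralogue aanat2 was higher by 0.57 ± 0.11, and without control 5 dpf replicate 1 by 0.45 with an adjusted p of 0.256. The cryptochrome cry1b was matched at -0.10 ± 0.09. Without that extract the list had 5 matched genes and 1 higher.

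The thyroid list had 13 measured genes, of which 1 was higher (7.69%, beside 8.81% of all genes) and 2 lower (15.4%, beside 6.75%). A further 5 were matched (38.5%, beside 61.8%) and 5 undecided. The thyroid hormone receptor thrb read 0.08, -0.23 and 0.15 in control 5 dpf and -0.82, -0.71 and -0.76 in recovered eyes. It was lower in every recovered extract at -0.73 ± 0.12 (adjusted p = 0.000596 by limma), against -0.03 in control eyes at 8 dpf, and without control 5 dpf replicate 1 it was at -0.56 with an adjusted p of 0.152. The receptor thraa was undecided at -0.30 ± 0.14. The activating deiodinase dio2 read 0.41, 0.49 and 0.44 against 0.00, -0.09 and 0.09. It was higher by 0.45 ± 0.07 (adjusted p = 0.000675), and without control 5 dpf replicate 1 by 0.35 with an adjusted p of 0.164. The deiodinase dio1 was lower at -0.39 ± 0.09, equal in size to its -0.41 in control eyes at 8 dpf to within the SE, and its call was lost when either PTU 5 dpf replicate 1 or PTU 8 dpf replicate 2 was left out (-0.32 each, adjusted p up to 0.183). The hormone-responsive gene klf9 was undecided at 0.71 ± 0.23 (adjusted p = 0.0519), with recovered levels of 0.59, 1.27 and 0.03 against -0.16, 0.26 and -0.09. The groups overlapped, and klf9 was called higher when control 5 dpf replicate 2, control 8 dpf replicate 3 or PTU 8 dpf replicate 3 was left out, at 0.77 to 1.05. The list had 2 matched genes in the fit lacking control 5 dpf replicate 1.

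Of the respiratory chain genes 6 of 77 were lower (7.79%, near the 6.75% of all genes), none higher, 23 matched (29.9%) and 48 undecided. The median was -0.23, against -0.52 in control eyes at 8 dpf, where 33 genes were lower, beside 7.05% of all genes in that comparison. The cytochrome oxidase subunit cox4i2 was at -0.90 ± 0.17 and uqcrc2a at -0.44 ± 0.08, and no call of this list held without control 5 dpf replicate 1, when 15 genes were matched. The lower genes reached 12 without control 8 dpf replicate 3, and the matched ranged from 10 without PTU 8 dpf replicate 3 to 39 without PTU 8 dpf replicate 1. Of the glycolysis and hypoxia genes 13 of 35 were lower (37.1%) and 2 higher, with 1 to 15 lower over the 12 omissions. The regulatory enzyme pfkfb3 was higher by 0.83 ± 0.13, at 0.88, 0.88 and 0.75 against -0.01, -0.19 and 0.20, and held under every omission. The enolase eno1b at -1.24 ± 0.28 and the isomerase tpi1a at -0.83 ± 0.17 were not called without control 5 dpf replicate 1, when 1 gene of the list was lower, and 2 were lower without PTU 5 dpf replicate 1. Synaptic genes were lower in 7 of 36 cases (19.4%, beside 6.75% of all genes) and matched in 17 (47.2%), with the vesicle protein sypb at -0.65 ± 0.11 and none lower without control 5 dpf replicate 1. Redox genes were higher in 7 of 48 cases (14.6%, beside 8.81% of all genes) and lower in 10 (20.8%, beside 6.75%), and without that extract in 2 and 1. The thioredoxin txnb was higher by 1.3 ± 0.16, at 1.24, 1.24 and 1.44 against 0.17, -0.12 and -0.05, and the glutaredoxin glrx by 0.69 ± 0.12, both under every omission, while the peroxiredoxin prdx1 was at -1.18 ± 0.19 and lost its call without control 5 dpf replicate 1. Of the chaperone genes 27 of 46 (58.7%) and of the cholesterol synthesis genes 6 of 10 were matched, near the 61.8% of all genes, and 10 and 5 in the fit lacking control 5 dpf replicate 1. The matched synaptic, glycolytic and redox genes numbered 8, 4 and 6 in that fit.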

How the data were processed

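The authors extracted spot intensities with GenePix Pro, removed spots that were not above background on any array, corrected the background by a normal-exponential model and applied loess within each array with limma 3.34.4. The deposited values are log2 ratios of Cy5 over Cy3 per probe on 14 arrays, base and direction being taken from the methods and the dye labels because the table states neither. Probes were named through accessions, current and older symbols (13708 of 16913), and the probes of a gene were averaged. The test of transcripts used limma 3.58.1 (R 4.3.3) and took arrays as independent, and that of genes had the RNA extract as a random effect (variance ratio 0.138), the p-values being adjusted by Benjamini-Hochberg over all transcripts or all genes. The test of genes was also run on data simulated from its own fitted model, with normal errors and the same variance ratio for all genes. That run cannot show how the test behaves where the ratio differs between genes. Extracts of a group came from separate plates of pooled larvae. The p-values of genes measure the residual spread of a gene over arrays, widened by the extract variance ratio that all genes share. They do not measure each gene's own spread between extracts, and those of transcripts measure the spread between arrays that reuse extracts. Named genes were the 12 largest rises and 12 largest falls without overlap of extracts, matched genes with the largest changes in control eyes or with PTU at 5 dpf, up to 4 genes of smallest p and up to 2 narrowest matches per list, and the thyroid hormone receptors and deiodinases. Genes outside these rules are marked in the text as named or chosen after their values were seen. The comparison, the 41 gene lists and the genes were chosen with earlier results of these data known, and lists are described by counts and medians without a test of the list. Figures were drawn with matplotlib 3.10.9 in Python 3.11.15. Without intensities, other background corrections, signal over background and slides were not analysed here. Alternatives were other scalings, dye and replicate terms, margins, probe choices, robust moderation, and leaving out each extract or the direct array.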

Additional observations from a re-analysis of the deposited data

How the results depend on the processing

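None of the named genes that were called changed sign under the alternatives run. Medians near 0 did so for 6 lists: horizontal cells (-0.01, up to 0.11), Mueller glia (-0.05, up to 0.01), mitosis (-0.03, up to 0.06), brain (0.05, down to -0.05), chaperones (0.03, down to -0.02) and redox (-0.08, up to 0.01), the redox median without PTU 8 dpf replicate 3. With another fold limit the counts of transcripts moved, to 1412 higher and 1233 lower without a limit and to 272 and 294 at a log2 difference over 1, and the matched genes fell from 5221 to 968 with a margin of 0.25, because a narrower margin admits fewer intervals. Leaving out each of the 12 extracts gave 311 to 427 higher and 203 to 536 lower transcripts, 213 to 785 higher and 133 to 603 lower genes, and 3034 to 5437 matched genes. All of the lowest values came without control 5 dpf replicate 1. Without PTU 5 dpf replicate 1 the genes numbered 387 higher and 251 lower, without PTU 8 dpf replicate 2 they numbered 489 and 337, and without control 8 dpf replicate 1 the lower genes numbered 378. Of the named genes 44 of 67 higher, 28 of 81 lower and 55 of 97 matched kept their call under all 12 omissions. The direct array, median centring, scaling, a dye term, robust moderation, the most variable probe and arrays taken as independent left these counts within 1.5 times of the reported ones. With a replicate block there were 628 higher, 466 lower and 4697 matched genes and 419 higher and 448 lower transcripts. Deviations of same-numbered extracts correlated between -0.232 and 0.627, not all above 0.1, and the 5 and 8 dpf larvae came from different plates, so the numbers were not taken as pairs. Chosen after seeing the data, a fit without the array of largest residual spread gave 888 higher and 674 lower genes. The number of arrays and the lack of intensities limit what could be told.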
